A study of Mus musculus with 7 samples.

Results

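Genes for the non-collagen matrix of cartilage and its lead transcription factor, 10 in all of the 27179 genes listed in the expression table, were followed in arthritic mouse ankles. They are Acan, Comp, Matn1, Matn3, Clec3a, Snorc, Chad, Cnmd, Hapln1 and Sox9, picked by name as genes of chondrocytes that encode no collagen, and all 10 were found through their Entrez numbers. The ankles came from mice of strain DBA1 in which arthritis had been induced with collagen, so that an immune response to that protein inflames and erodes the joints. Each of 4 ankles had received a miR-17-5p mimic inside the joint, and each of 3 ankles an irrelevant control microRNA, in both cases carried by a lipoplex, a complex of lipid and nucleic acid. Arthritis and lipoplex are thus common to both groups, and neither a healthy nor an uninjected ankle was analysed here. Whole ankles without skin were used, so bone, marrow, muscle, tendon, fat and synovium lie in every sample beside cartilage. Fewer chondrocytes and less RNA per chondrocyte cannot be told apart in such samples, and neither the age of the mice nor the time after injection is stated in the labels.

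Cartilage is a tissue with few cells and much matrix, in which collagen fibrils hold a gel of aggrecan bound to hyaluronan. Matrilins, COMP and chondroadherin link these components to each other and to the cells. In arthritis the aggrecan is cut early by proteases of the ADAMTS and MMP families, and its loss precedes that of collagen. Sox9 switches on the genes of both the fibril and the gel during development and keeps chondrocytes in their state later on.

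Values are FPKM, which scale the fragments of a gene by its length and by the size of the library, so that levels can be set side by side between genes. The libraries held from 27465276 to 31118975 reads, and from 13130 to 13470 genes reached 1 FPKM. The groups were compared with limma on log2(FPKM + 0.5). Genes whose mean reached 1 FPKM entered the fit, 13418 in number, and p-values were adjusted over all of them. Of the 10 genes, 9 were tested and Matn1 was too low. The labels do not say that the ankles came from separate animals, so the tests measure the spread between these samples, which may be technical.

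Clec3a, Snorc and Chad had higher means in mimic ankles, with log2 fold changes of 1.13, 0.92 and 0.95. Cnmd and Matn3 had higher means as well, by 0.59 and 0.58, and like Chad they had overlapping groups. The order of these 5 rested on control replicate 5, without which Cnmd led at 1.12 and Matn3 had 0.92, ahead of Clec3a at 0.88, Snorc at 0.71 and Chad at 0.54. Acan, Comp, Hapln1 and Sox9 lay within 0.17 of no difference, which covers the main proteoglycan gene, its link protein and the lead transcription factor. Whether the genes differ from each other in their fold changes was not tested. After adjustment over all genes 0 of the 9 passed limma at 0.05. The share over all 13418 genes was 0% too, with 2356 genes at an unadjusted p under 0.05, although 317 genes, none of them among the 9, passed when control replicate 2 was omitted. At an unadjusted p under 0.05, 3 of the 9 were higher in mimic ankles, against 7.48% of all genes tested. Groups that did not overlap, with mimic ankles higher, were found for Clec3a and Snorc, 2 of the 9, against 6.48% of all genes. Once control replicate 5 was omitted, 4 of the 9 had such groups. Smaller groups separate more readily, and the share over all genes was not counted in that setting. Over the 9 genes the log2 fold changes had a median of 0.58, which was 0.19 when control replicate 3 was omitted, and the median of all tested genes was -0.0063.

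**Figure D1:**
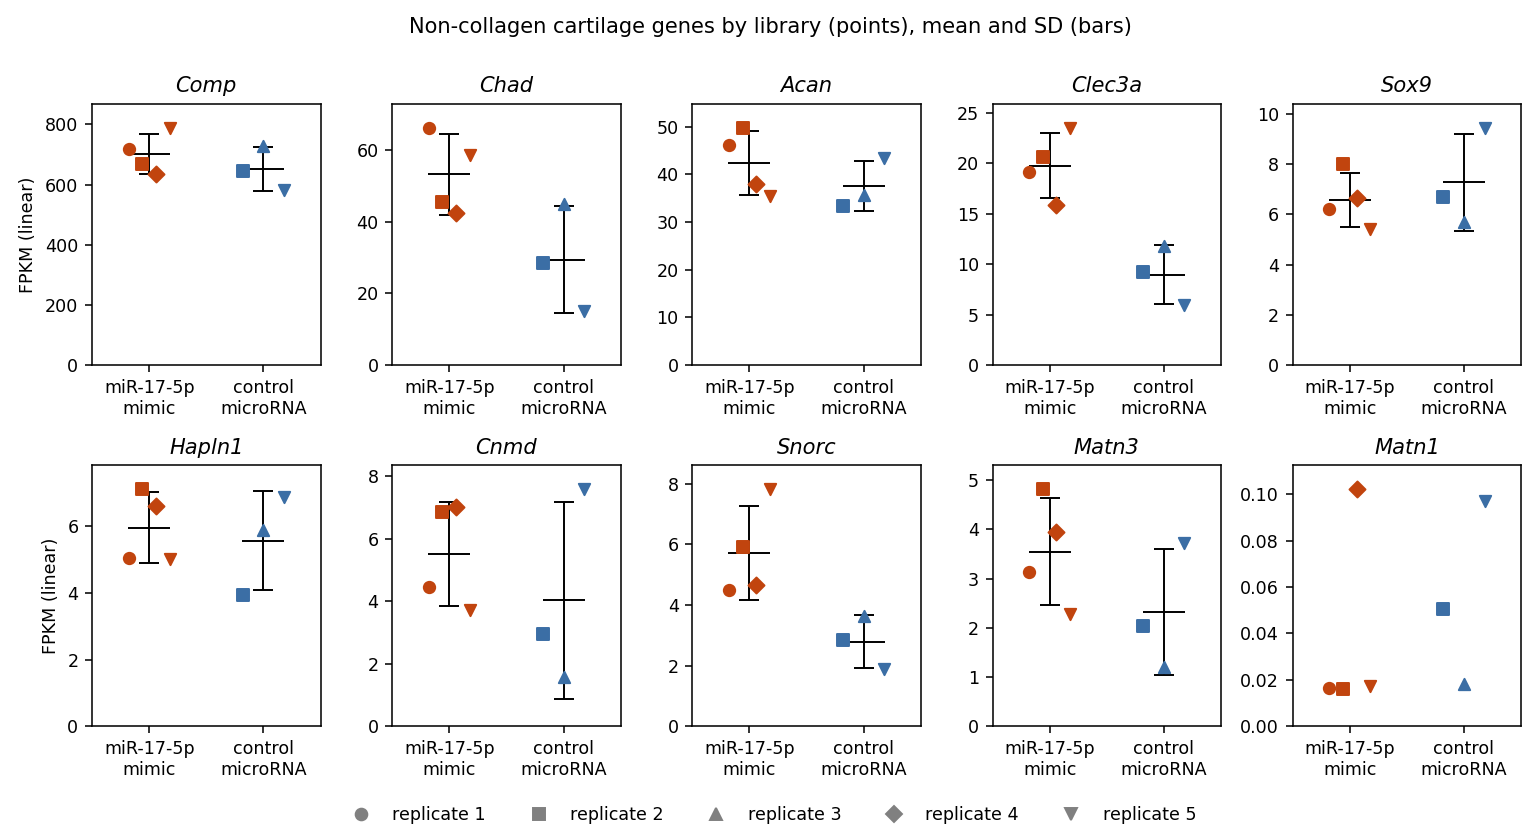
FPKM of each of the 10 genes in each library, on a linear axis from 0, with mimic ankles left and control ankles right. Points are libraries, with a marker for each replicate number, and bars show the mean and SD (4 mimic and 3 control libraries, bars omitted for Matn1, which had 1 to 6 reads a library). The groups separate for Clec3a and Snorc alone.

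The mature sequence of mouse miR-17-5p, for which the injected mimic is named, is shown because its bases 2 to 8, in capitals, are the seed that pairs with target transcripts (RefSeq, GRCm38.p6, 115043684 to 115043706 on the plus strand of chromosome 14).
mmu-miR-17-5p: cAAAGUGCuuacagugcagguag

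A full seed match in a transcript reads GCACTTT, and CACTTT is its 6-base core. The longest annotated 3 prime untranslated region was read for 9 of the 10 genes, Clec3a being the exception (GENCODE M21, GRCm38). None of these 9 held GCACTTT, or CACTTT followed by A, while 22.1% of 12511 tested genes with such a region did. No match at all, the core included, was found in 57.9% of those 12511 genes. The regions read ran from 44 bases in Snorc to 3503 bases in Hapln1, and the shares make no allowance for length. The core alone occurred in Matn3 and Sox9, at the sites below with the core in capitals and 10 bases on either side.
Matn3, chromosome 12, 8971130 to 8971155: tgttatatgaCACTTTtaattcatta
Matn3, chromosome 12, 8971363 to 8971388: tgaatgcataCACTTTttaagcgcag
Sox9, chromosome 11, 112785618 to 112785643: ttcctttggaCACTTTtttttttttg

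These are descriptions of letters, and pairing at these sites was not measured.

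The genes spanned more than 4 orders of magnitude of level. Comp led with a mean of 680.4 FPKM over the 7 libraries and made up between 81.8% and 87.8% of the summed FPKM of the 10 genes in each library. Chad, at 43.0 FPKM, and Acan, at 40.3 FPKM, came next and changed places between libraries, with Chad higher in 4 of 7. Clec3a followed at 15.1 FPKM and was above the next gene, Sox9, in 6 of 7 libraries. Sox9, Hapln1, Cnmd, Snorc and Matn3 stood between 6.88 and 3.02 FPKM, and neighbours in that order swapped in 1 to 3 libraries. Matn1 stood far below, at 0.0454 FPKM. The exons listed for these genes overlapped those of no other gene in the table, so reads of another listed gene on the same bases are not mixed into their values.

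The proteoglycan gel is represented by Acan, Hapln1 and Snorc. Acan (mm10 chromosome 7, 79053483 to 79115099, plus strand, 17 exons) encodes aggrecan, whose chondroitin sulfate chains draw water into cartilage. It stood at 46.2, 49.8, 38.1 and 35.4 FPKM in mimic ankles 1, 2, 4 and 5, against 33.4, 35.7 and 43.5 FPKM in control ankles 2, 3 and 5. The highest control lay above the lower pair of mimic ankles, so the groups overlapped. Its log2 fold change was 0.17 (SE 0.14, 95% interval -0.17 to 0.50, limma adjusted p = 0.550). It was 0.085 without mimic replicate 2, 0.089 without control replicate 2 and 0.28 without control replicate 5. Between 7210 and 11390 reads per library stood behind these values, so counting error was small beside the spread between ankles.

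Hapln1 (chromosome 13, 89540636 to 89611832, plus strand, 5 exons) encodes the link protein that clamps aggrecan to hyaluronan. It had 5.06, 7.12, 6.61 and 5.03 FPKM in mimic ankles 1, 2, 4 and 5, and 3.95, 5.89 and 6.88 FPKM in control ankles 2, 3 and 5. The groups overlapped almost fully, with control ankle 2 alone below all mimic ankles. Its log2 fold change of 0.10 (SE 0.20, 95% interval -0.35 to 0.56, limma adjusted p = 0.787) turned to -0.10 without control replicate 2.

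Snorc (chromosome 1, 87470264 to 87475459, plus strand, 3 exons) encodes a small proteoglycan of the chondrocyte membrane. It had 4.49, 5.91, 4.65 and 7.83 FPKM in mimic ankles 1, 2, 4 and 5, against 2.86, 3.63 and 1.90 FPKM in control ankles 2, 3 and 5. Every mimic ankle lay above every control ankle. The log2 fold change was 0.92 (SE 0.24, 95% interval 0.37 to 1.47), with an unadjusted p of 0.0052 and a limma adjusted p = 0.176. The gene is short, at 462 bases, and rested on few reads. Mimic replicates 1 and 4, the lowest of their group, had 63 reads each, with an exact Poisson interval of 48.4 to 80.6, and control replicate 3, the highest of its group, had 46, with an interval of 33.7 to 61.4. These intervals, which cover counting error alone, overlap, so the gap between the nearest ankles of the groups is within counting error.

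Among the proteins that bridge the matrix, Comp (chromosome 8, 70373548 to 70382066, plus strand, 19 exons) encodes cartilage oligomeric matrix protein, a thrombospondin family member that binds collagens and is also made by tendon. It had 717, 669, 634 and 789 FPKM in mimic ankles 1, 2, 4 and 5, and 644, 728 and 583 FPKM in control ankles 2, 3 and 5. The groups overlapped, and the highest library was only 1.35 times the lowest, the smallest spread of the 10 genes. For Comp the log2 fold change was 0.11 (SE 0.12, 95% interval -0.17 to 0.39, limma adjusted p = 0.631). It was 0.032 without control replicate 5, 0.052 without mimic replicate 5 and 0.19 without control replicate 3.

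Chad (chromosome 11, 94565074 to 94569127, plus strand, 4 exons) encodes chondroadherin, a leucine-rich repeat protein to which chondrocytes attach. It had 66.2, 45.5, 42.4 and 58.7 FPKM in mimic ankles 1, 2, 4 and 5, against 28.4, 44.9 and 15.1 FPKM in control ankles 2, 3 and 5. Control ankle 3 was above mimic ankle 4, which was the sole point of overlap, and control ankle 5 lay far below the rest. Chad had a log2 fold change of 0.95 (SE 0.34, 95% interval 0.15 to 1.76, unadjusted p = 0.0264, limma adjusted p = 0.238). It was 0.54 without control replicate 5 and 1.32 without control replicate 3.

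The matrilins are adaptor proteins that join collagen fibrils to proteoglycans. Matn3 (chromosome 12, 8947929 to 8972028, plus strand, 8 exons) had 3.14, 4.82, 3.95 and 2.28 FPKM in mimic ankles 1, 2, 4 and 5, and 2.03, 1.21 and 3.72 FPKM in control ankles 2, 3 and 5. Mimic ankle 5 was the lowest of its group and control ankle 5 the highest of its own, and the groups overlapped between them. The log2 fold change was 0.58 (SE 0.33, 95% interval -0.20 to 1.35, limma adjusted p = 0.386), or 0.27 without control replicate 3 and 0.92 without control replicate 5.

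Matn1 (chromosome 4, 130944385 to 130955476, plus strand, 8 exons), the matrilin known from tracheal and growth cartilage, was all but absent. A total of 9 reads lay in it over the mimic libraries and 10 over the control libraries, with 1 to 6 in each library. At this depth no difference was detectable, and no fold change is given. By contrast Matn3 held between 100 and 452 reads in each library, so cartilage RNA as such was present in all 7.

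Clec3a and Cnmd encode a secreted lectin-like protein and an anti-angiogenic protein of chondrocytes. Clec3a (chromosome 8, 114418034 to 114428133, plus strand, 3 exons), a C-type lectin domain protein of cartilage, had 19.1, 20.6, 15.8 and 23.5 FPKM in mimic ankles 1, 2, 4 and 5, against 9.25, 11.8 and 5.91 FPKM in control ankles 2, 3 and 5. The groups did not overlap, and the mimic mean of 19.8 ± 3.20 FPKM (SD, n = 4) stood against a control mean of 8.97 ± 2.93 FPKM (SD, n = 3). The log2 fold change, 1.13 (SE 0.22, 95% interval 0.61 to 1.66), came with an unadjusted p of 0.0012 and a limma adjusted p = 0.173. It stayed between 0.88 and 1.34 when any library was left out. The limma adjusted p then ran from 0.062 without control replicate 2, where 317 other genes passed, to 0.46 without control replicate 5. Between 534 and 2001 reads lay in it per library.

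Cnmd (chromosome 14, 79637690 to 79662170, minus strand, 7 exons), formerly Lect1, encodes chondromodulin, which keeps vessels out of cartilage. Its levels were 4.45, 6.85, 7.01 and 3.72 FPKM in mimic ankles 1, 2, 4 and 5, and 2.95, 1.57 and 7.59 FPKM in control ankles 2, 3 and 5. Control ankle 5 had the highest value of all 7 and control ankle 3 the lowest, so the control group spanned the whole mimic group. The log2 fold change of 0.59 (SE 0.45, 95% interval -0.45 to 1.64, limma adjusted p = 0.50) was 0.14 without control replicate 3 and 1.12 without control replicate 5.

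Sox9 (chromosome 11, 112782210 to 112787757, plus strand, 3 exons), the transcription factor of the set, had 6.22, 8.0, 6.66 and 5.43 FPKM in mimic ankles 1, 2, 4 and 5, and 6.69, 5.72 and 9.45 FPKM in control ankles 2, 3 and 5. The groups overlapped, with control ankle 5 the highest of all. The log2 fold change was -0.12 (SE 0.18, 95% interval -0.54 to 0.30, limma adjusted p = 0.730), the sole negative estimate among the 9, and it was 0.070 without control replicate 5. A doubling of Sox9 such as the estimate for Clec3a lies outside its interval.

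**Figure D2:**
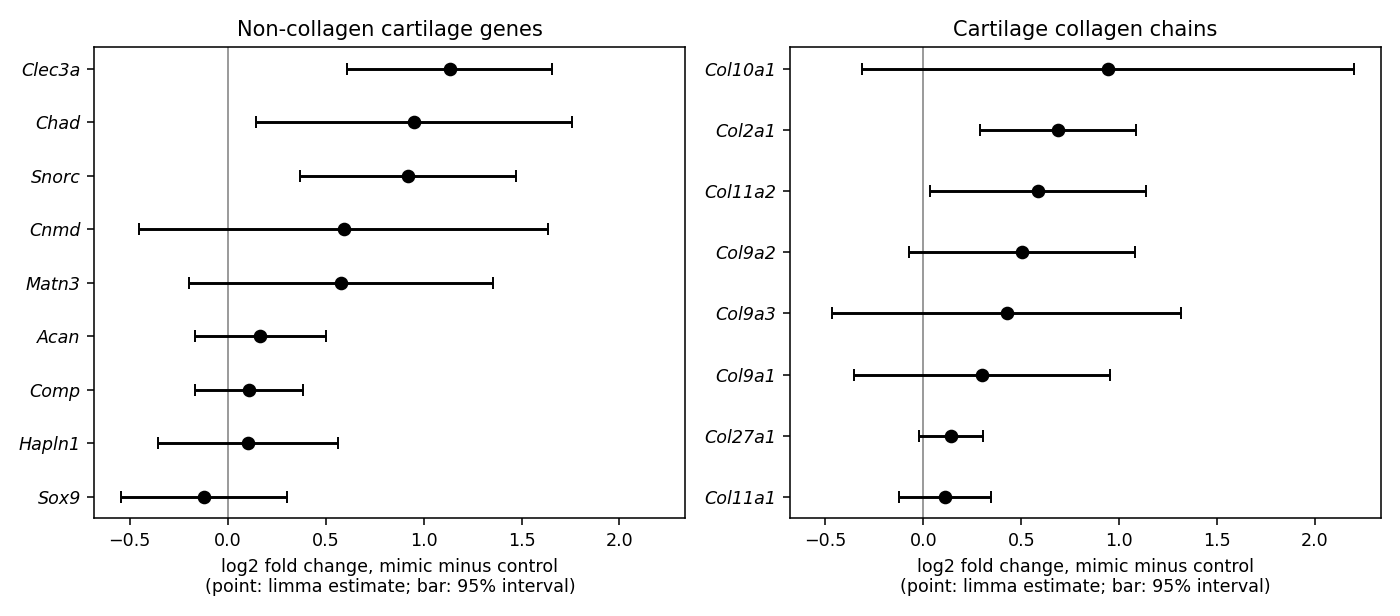
Log2 fold change, mimic minus control, of the 9 tested genes (left) and of 8 cartilage collagen chains (right), with the limma estimate as a point and its 95% interval as a bar. Clec3a, Chad and Snorc have intervals above 0 on the left and Col2a1 and Col11a2 on the right, none of them passing after adjustment over all genes.

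The 9 genes did not vary as a block from ankle to ankle. Likeness was measured as the root mean square difference, in log2 units over the 7 libraries, between profiles centred on each gene's own mean. Clec3a and Snorc were the closest pair, at 0.17, and the nearest gene to Chad was Clec3a, at 0.26. Cnmd and Matn3 formed the next closest pair, at 0.21, while Acan and Sox9 also stood at 0.21. Chad and Cnmd were the farthest apart, at 1.06. The contrast lay mainly in control ankle 5, where Chad was 1.36 and Clec3a 1.16 log2 units below its mean while Cnmd was 0.73 and Sox9 0.45 above. In control ankle 3 the order was the reverse, with Cnmd 1.24 below its mean and Chad 0.19 above.

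A pair of collagen chains, picked from the list of 8 after their values were seen, lay near one or the other of these profiles. Col9a1, a chain of the type IX collagen on the fibril surface, differed from Matn3 by 0.19 and from Cnmd by 0.29, but from Chad by 0.88. Col10a1, the collagen of hypertrophic chondrocytes, differed from Chad by 0.36 and from Clec3a by 0.50, but from Cnmd by 1.31. Col10a1 had 4.57, 2.44, 3.20 and 7.73 FPKM in mimic ankles 1, 2, 4 and 5, against 1.81, 4.70 and 0.65 FPKM in control ankles 2, 3 and 5. Col9a1 had 5.43, 6.77, 7.61 and 4.36 FPKM in the same mimic ankles, against 4.63, 3.05 and 7.26 FPKM in the same control ankles. Control ankle 5 was thus lowest for Col10a1 and second highest for Col9a1. Col10a1 was not alone, since Col11a2 was also lowest in control ankle 5, at 0.87 log2 units below its mean, as Clec3a, Snorc and Chad were. The other chains did not all take either form. Col11a1 ranged only from -0.25 to 0.20 and Col27a1 from -0.12 to 0.17 log2 units about their means, and Col2a1 was lowest in control ankle 2, at -0.68. These likenesses were read after the values were seen, rest on 7 libraries that share a group difference and carry no test.

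**Figure D3:**
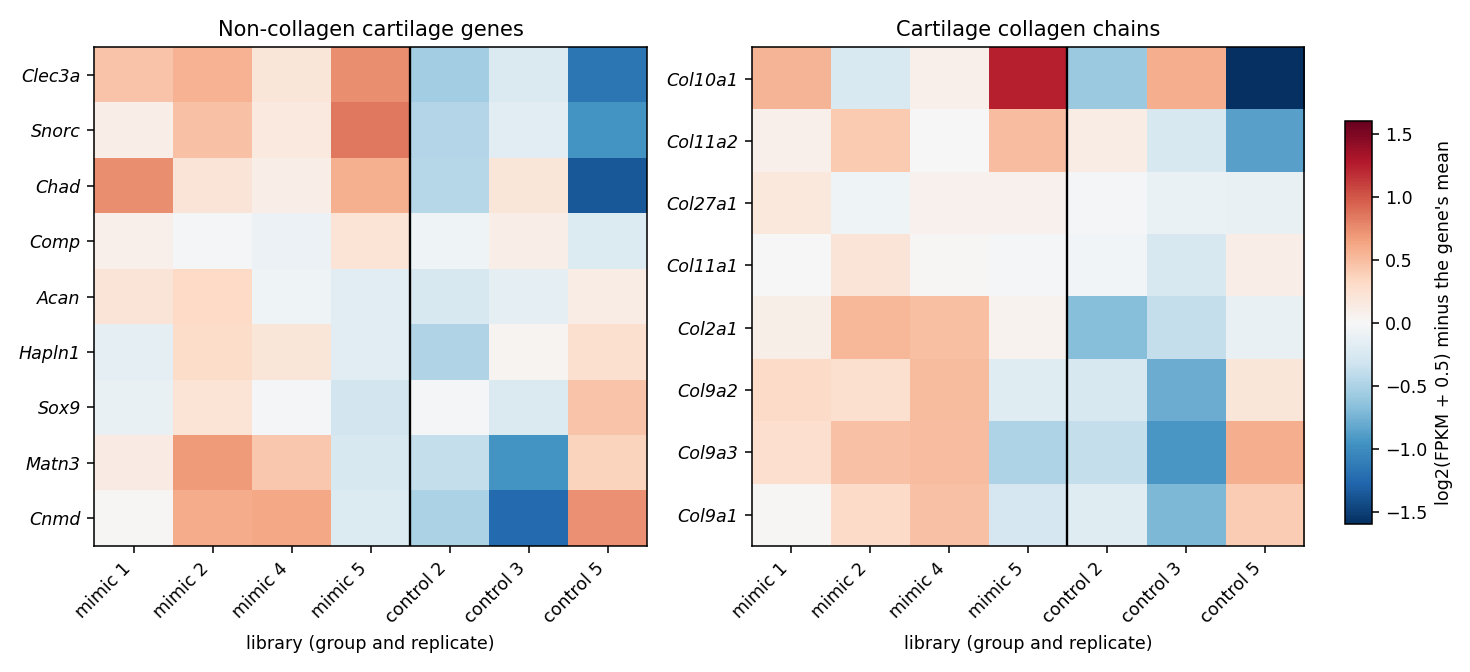
Heat map of log2(FPKM + 0.5) minus each gene's mean, in log2 units, for the 9 tested genes (left) and 8 cartilage collagen chains (right), with a column per library and a line between mimic and control ankles. Control ankle 5 is far below the mean for Clec3a, Snorc, Chad, Col10a1 and Col11a2 and above it for Cnmd, Matn3, Sox9 and the type IX chains.

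Promoter sequence was read for 6 of the 10 genes (RefSeq, GRCm38.p6, 250 bases before to 50 after the annotated start). The core letters bound by SOX proteins, ACAATG or ACAAAG on either strand, occurred in 0 of these 6, and in 28.6% of all 32851 promoters of that length, which says only that the letters are not in these windows. The promoters of Chad, Matn3 and Cnmd are shown because Chad stood farthest from Cnmd in profile and Matn3 next to it. Capitals mark TATAAA, the core of the TATA box, on the strand of the gene. These letters, chosen after the sequences were seen, occur in 8.32% of all promoters and, of the 6, in Chad alone, at 28 bases before the start.
Chad, chr11:94564797-94565096, plus strand: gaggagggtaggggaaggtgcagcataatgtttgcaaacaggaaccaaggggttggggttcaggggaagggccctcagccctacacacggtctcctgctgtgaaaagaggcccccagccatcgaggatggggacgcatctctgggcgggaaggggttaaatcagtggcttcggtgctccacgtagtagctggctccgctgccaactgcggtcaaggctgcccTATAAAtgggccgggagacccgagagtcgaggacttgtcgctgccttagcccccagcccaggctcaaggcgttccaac
Matn3, chr12:8947679-8947978, plus strand: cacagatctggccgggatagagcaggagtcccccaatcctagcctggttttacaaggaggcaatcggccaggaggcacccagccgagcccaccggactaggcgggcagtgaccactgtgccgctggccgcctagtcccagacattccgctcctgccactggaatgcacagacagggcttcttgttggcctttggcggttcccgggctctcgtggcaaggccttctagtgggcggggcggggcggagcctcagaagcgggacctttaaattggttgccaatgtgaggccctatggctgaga
Cnmd, chr14:79662134-79662433, minus strand: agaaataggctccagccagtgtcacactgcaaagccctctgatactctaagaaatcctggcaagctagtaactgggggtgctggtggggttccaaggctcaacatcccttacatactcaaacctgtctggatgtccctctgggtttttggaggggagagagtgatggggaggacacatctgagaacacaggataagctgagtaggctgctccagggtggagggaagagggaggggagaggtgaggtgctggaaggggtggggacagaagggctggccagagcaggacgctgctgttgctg

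Set against Col2a1, the main collagen of cartilage, the 9 genes divided. Col2a1 itself averaged 53.2 ± 9.20 FPKM in mimic ankles (SD, n = 4) and 32.9 ± 6.46 FPKM in control ankles (SD, n = 3), with groups that did not overlap. The log2 ratio of Sox9 to Col2a1 was -2.92 ± 0.12 in mimic ankles and -2.11 ± 0.27 in control ankles (SD, n = 4 and 3). For Hapln1 it was -3.05 ± 0.025 in mimic ankles and -2.47 ± 0.12 in control ankles. For Acan it was -0.32 ± 0.27 in mimic ankles and 0.20 ± 0.11 in control ankles. Every mimic ankle lay below every control ankle in these 3 ratios, as it did for 65.4% of all genes tested, so that low ratios to Col2a1 were the usual case here. In mimic ankles the ratio of Hapln1 to Col2a1 ranged only from -3.09 to -3.03. The mean ratios of Clec3a, Chad and Snorc to Col2a1 were higher in mimic ankles by 0.45, 0.26 and 0.24, with overlapping groups, and those of Comp, Matn3 and Cnmd differed by -0.58, -0.11 and -0.095, also with overlap.

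Other genes of cartilage, in lists chosen together with the 10 genes, were read from the same fit. All 8 collagen chains of cartilage had a higher mean in mimic ankles. Their median difference was 0.46 log2 units, or 0.19 without control replicate 3. With the replicate number as a block it was 0.065, an estimate that rests on replicates 2 and 5, the only numbers found in both groups. Besides Col2a1 (0.69, SE 0.17), Col11a2 had 0.59 (SE 0.23) and Col27a1 0.14 (SE 0.069). Unadjusted p under 0.05 was reached by 2 of the 8, both higher, against 7.48% of all genes, and adjusted p under 0.05 by 0.

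Among 15 further matrix genes tested, 12 had a higher mean in mimic ankles (median difference 0.41 log2 units), and 7 had an unadjusted p under 0.05, all higher, against 7.48% of all genes. Ecm2, an extracellular matrix protein, stood at 17.5 ± 1.00 FPKM in mimic ankles and 11.6 ± 1.92 FPKM in control ankles. Cilp2, a protein related to the cartilage intermediate layer protein, had 14.6 ± 3.18 FPKM in mimic ankles and 6.71 ± 2.43 FPKM in control ankles. Ucma, a small secreted protein of chondrocytes, had 2.01 ± 0.59 FPKM in mimic ankles and 0.92 ± 0.24 FPKM in control ankles. The groups did not overlap for any of these 3 genes, yet their limma adjusted p-values were 0.173, 0.174 and 0.176.

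Regulators of chondrocytes had a higher mean in mimic ankles in 8 of 11 cases, with a median difference of 0.11 log2 units, which was 0.21 without mimic replicate 4 and 0.074 without control replicate 5. Fgfr3, a growth factor receptor of the growth plate, had 0.40 (SE 0.16), Runx3, a transcription factor of maturing chondrocytes, -0.23 (SE 0.097), and Sox6, a partner of Sox9, 0.51 (SE 0.23). Only Fgfr3 had an unadjusted p under 0.05, while 7.48% of all genes tested were higher at that level.

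Enzymes that build and sulfate the chondroitin chains of aggrecan were also read. Of 15, 4 had a higher and 11 a lower mean in mimic ankles. The median difference of -0.090 log2 units was -0.23 without control replicate 2, -0.044 without mimic replicate 2 and -0.039 without control replicate 3. With the mean of the muscle or the osteoblast markers as a covariate it was -0.018 or 0.0011, so its direction did not hold. At an unadjusted p under 0.05, 4 were lower, against 10.1% of all genes, and 1 was higher. Chsy1 and Chsy3, which polymerise the chain, differed by -0.37 (SE 0.10) and -0.38 (SE 0.11) log2 units, and Chst11, which sulfates it, had -0.36 (SE 0.11). Each was lower in every mimic ankle than in any control ankle, though for Chst11 the nearest ankles stood at 11.83 FPKM in the mimic and 11.84 FPKM in the control group, with limma adjusted p-values of 0.179, 0.200 and 0.203.

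The enzymes that cut aggrecan or COMP, listed with the inhibitor Timp3, had a lower mean in 8 of 10 cases. Adamts15 and Timp3 itself had higher means, with log2 fold changes of 0.47 and 0.45. The median difference of the 10 was -0.23 log2 units. It was -0.36 without control replicate 2, -0.16 without control replicate 3 and -0.13 with the osteoblast covariate. Adamts4 and Adamts5, the main aggrecanases, differed by -0.85 (SE 0.19) and -0.66 (SE 0.18) log2 units, and Mmp3, a stromelysin that also cuts aggrecan, -0.83 (SE 0.22). These 3 were among 4 of the 10 that were lower at an unadjusted p under 0.05, against 10.1% of all genes, and 0 of the 10 passed over all genes. Acan transcript, at a log2 fold change of 0.17, showed no such difference.

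Genes of other ankle tissues also differed between the libraries, and their part in the values above was not tested. Beside the counts below, 7.48% of all genes tested were higher and 10.1% lower in mimic ankles at an unadjusted p under 0.05. Of 10 osteoblast markers, 10 had a higher mean in mimic ankles, 2 of them at an unadjusted p under 0.05, and their summed level ran from 8075 to 8691 FPKM there and from 7308 to 7662 FPKM in control ankles. Bglap and Bglap2, the osteocalcin genes, had log2 fold changes of 1.49 and 1.32, and Sp7 0.40. Control ankle 5, in which Clec3a, Snorc and Chad were lowest, was also lowest in Bglap, at 17.2 FPKM, and in the sums of the osteoblast, adipocyte, muscle and erythroid markers. Of 10 adipocyte markers, 10 had a higher mean, all 10 at an unadjusted p under 0.05. Their sums ran from 1163 to 1508 FPKM in mimic and from 594 to 1043 FPKM in control ankles, with Pparg at 0.47, Lep at 1.09 and Lipe at 0.44. Tendon markers were higher in mean in 5 of 6 cases, 4 at an unadjusted p under 0.05, with sums of 1265 to 1558 FPKM in mimic and 1135 to 1371 FPKM in control ankles, and Kera, Tnmd and Mkx had log2 fold changes of 0.96, 0.80 and 0.19. Synovial lining markers went both ways, with 4 of 6 higher in mean, 3 at an unadjusted p under 0.05, and 2 lower, 1 at that level. They had sums of 946 to 1265 FPKM in mimic and 990.1 to 1700.3 FPKM in control ankles, and Htra4, Cd55 and Tspan15 had log2 fold changes of 1.29, 0.41 and 0.32. The lower pair, named after their values were seen, were Has1 at -0.47 and Prg4, the lubricin gene that made up most of the sum, at -0.25.

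Skeletal muscle varied widely, with sums over its 12 markers of 3088 to 11614 FPKM in mimic and 1307 to 7778 FPKM in control ankles. Its 12 markers all had higher means, 0 of them at an unadjusted p under 0.05, and Myl1, Mylpf and Pvalb had log2 fold changes of 1.29, 1.17 and 1.74. The sums of 8 erythroid genes found ran from 217 to 1720 FPKM in mimic and from 153 to 656 FPKM in control ankles, and Slc4a1 and Klf1 had 1.29 and 0.89, with 0 of 6 tested at an unadjusted p under 0.05. All 10 neutrophil markers had a lower mean in mimic ankles, 5 at an unadjusted p under 0.05, against 10.1% of all genes. Their sums ran from 1369 to 3521 FPKM in mimic and from 3199 to 6529 FPKM in control ankles. Cxcr2, Csf3r and S100a9 had log2 fold changes of -1.43, -1.09 and -1.01. No marker in these lists was at 0 in every library. Of these markers 0 passed after adjustment over all genes.

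**Figure D4:**
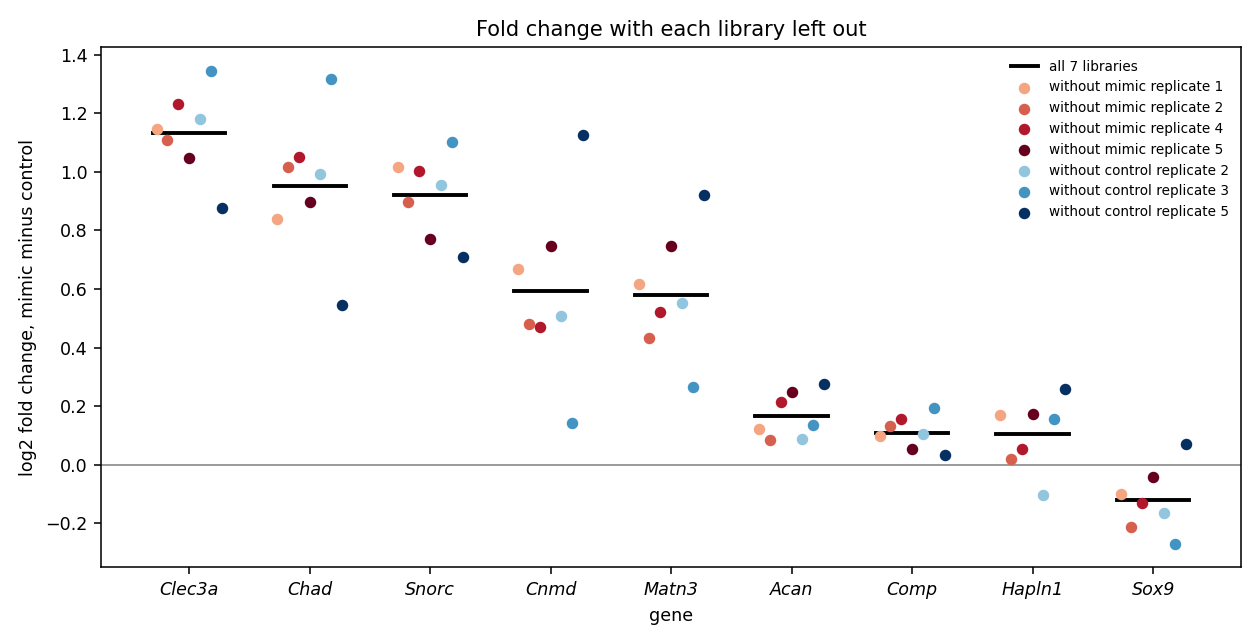
Log2 fold change, mimic minus control, of the 9 tested genes with all 7 libraries (black line) and with each library left out (points, reds for mimic and blues for control libraries). Clec3a, Snorc and Chad stay above 0.5 throughout. Cnmd, Chad and Matn3 move most, when control replicate 3 or 5 is left out, and Hapln1 and Sox9 cross 0.

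The genes outside the set with profiles closest to the mean profile of the 9 were Tor3a, Ifi35, Agrn, Irf9 and Ogn, at root mean square differences of 0.072 to 0.11 log2 units over 7 libraries. The mean profile itself departed from a flat line by 0.26. The log2 fold changes of these 5 ran from 0.45 for Tor3a to 0.54 for Agrn, so the likeness includes a shared group difference. Ogn and Agrn encode matrix proteoglycans, but Tor3a, Ifi35 and Irf9 do not, and Tor3a and Ifi35 were the closest, at 0.072 and 0.092. Ogn, the gene of osteoglycin, stood at 127 ± 7.92 FPKM in mimic ankles and 92 ± 8.25 FPKM in control ankles (SD, n = 4 and 3). Agrn, the gene of agrin of basement membranes, had 24.5 ± 1.44 FPKM in mimic ankles and 16.7 ± 0.51 FPKM in control ankles. Tor3a had 33.3 ± 1.95 FPKM in mimic ankles and 24.3 ± 2.08 FPKM in control ankles. Ifi35 had 40.3 ± 3.34 FPKM in mimic ankles and 28.8 ± 1.01 FPKM in control ankles, and Irf9 35.5 ± 3.36 FPKM and 25.5 ± 3.76 FPKM. These 5 were picked as the nearest of all eligible genes tested, so their lying closer than the 9 says nothing about the set. Of the 9, Acan lay nearest the mean profile, at 0.20, but it lay as near a flat line, at 0.20.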

How the data were processed

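RNA from 7 ankles, 4 with the miR-17-5p mimic and 3 with the control microRNA, was sequenced on an Illumina instrument, as the labels state. The authors deposited FPKM values per gene and library, with joined exon lengths and mm10 exon positions, per the file headers. Tools listed in the submitters' processing notes, without roles, are STAR 2.5.2b, Subread with featureCounts, DESeq2 1.14.1 and bcl2fastq 2.20. The sources used here give neither strand setting nor annotation release.

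Symbols were found for 25275 of 27179 Entrez numbers in a RefSeq table of GRCm38.p6. FPKM times length gave whole reads for 100% of values, within 0.01 of a read, and these reads set the depth and counting intervals. Limma 3.58.1 in R 4.3.3 (lmFit, eBayes with a trend) was run on log2(FPKM + 0.5), over genes whose mean reached 1 FPKM, group as the single factor, 2-sided, Benjamini-Hochberg over all genes tested. The fit was also run on simulated data whose genes varied independently. That leaves out variation shared between genes, so it does not measure the error rate in these libraries. Fold changes on this scale understate those of low genes. Other steps used Python 3.11.15 and pandas 2.3.3.

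The 10 genes, the 12 comparison lists (125 entries, 2 not matched) and the tests were chosen with earlier results of these data known. Named outside the set are the 3 genes with the smallest p of each list (1 erythroid gene is not reported here), Col2a1, the 5 genes closest in profile and, chosen after its values were seen, Col9a1, Col10a1, Has1 and Prg4. Alternatives were pseudocounts of 0.1 and 1, no filter or a mean of 5 FPKM, median-of-ratios and quantile scaling, no trend, the replicate number as a block, library weights, muscle, erythroid or osteoblast list means as covariates, limma-voom on recovered reads, and leaving out each library.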

Additional observations from a re-analysis of the deposited data

Results flagged for a closer look

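In 59 groups of 4 mimic values, of the tested genes, their ratios to Col2a1 and the other genes named, 3 held a library far from the others, where chance flags about 1 group in 20. Sp7 was lowest in mimic replicate 4, at 25.8 FPKM, far below the other 3. The lowest mimic value of Tor3a, 30.4 FPKM, and that of Ogn, 115 FPKM, stood apart in the same way. None of the 9 tested cartilage genes, nor its ratio to Col2a1, held such a value.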

How the results depend on the processing

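Under all 20 alternatives 0 of the 9 tested genes passed over all genes, and from 2 to 4 were higher at an unadjusted p under 0.05. Over all genes tested, those at that level in either direction ran from 838 with the osteoblast covariate to 3831 without control replicate 2. The main fit had 2356, and the share of higher genes was not counted under the alternatives. Every estimate of the 9 kept its sign except those of Hapln1 and Sox9. With a library left out, Hapln1 ranged from -0.10 to 0.26 and Sox9 from -0.27 to 0.070. Sox9 was 0.0064 with the muscle covariate and 0.092 with the osteoblast covariate. The median of the chain-building enzymes, -0.090, was 0.0011 with the osteoblast covariate, which also put Cnmd and Matn3, at 1.27 and 0.97, ahead of Clec3a at 0.77. The median over the 9 genes was 0.14 with the filter at a mean of 5 FPKM, which left 6 of them, 0.23 with the replicate block, and from 0.19 to 0.75 with a library left out. Over all genes, 1 was called with no filter on low values, from 0 to 317 with a library left out, with 317 when control replicate 2 was omitted and 2 when mimic replicate 5 was. The cause was not tested. With the numbers 2 and 5 as pairs, deviations from the group means correlated across genes at 0.54 and -0.43, so the numbers were not taken to pair the ankles, and the replicate block called 0 genes. Only the numbers 2 and 5 occur in both groups, so fold changes under the block rest on those libraries alone. Under the block the median of the cartilage collagens was 0.065 and that of the other matrix genes 0.25, against 0.46 and 0.41 without it, and Clec3a was 1.51, Snorc 1.37, Chad 1.30 and Cnmd 0.076. Without control replicate 5 the groups did not overlap for 4 of the 9 genes, Matn3 and Cnmd being added, and without control replicate 3 or mimic replicate 4 for 3, Chad being added. Smaller groups separate more readily, and the share over all genes was not counted with a library left out. Depth limits Matn1, with 1 to 6 reads a library, and Snorc, with 27 to 105.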
